A study of Homo sapiens with 16 samples.

Results

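The genes described here are 37 genes of the amino acid response: the transcription factor ATF4, regulators that act with it, and enzymes, transporters and cytosolic aminoacyl-tRNA synthetases listed as its targets. Of the 37 genes, 36 had a probe set assigned to exactly 1 gene symbol, against 19775 such genes on the whole array. MARS1, the methionyl-tRNA synthetase gene, had probe sets assigned to several symbols and was not tested. Where a gene had several such probe sets, the one with the highest mean log2 value of the 16 arrays was used. All 36 genes were among the 13483 genes that passed a filter on dim values and were tested.

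RNA was measured on Affymetrix Human Genome U133 Plus 2.0 arrays in 4 established human T-cell acute lymphoblastic leukaemia lines, CEM, CUTL1, DND41 and Jurkat. Each line was given either DMSO, the solvent control, or 1 uM PD-0332991 in culture, and RNA was taken after 15 h. PD-0332991, also called palbociclib, inhibits the cyclin D-dependent kinases CDK4 and CDK6. Each line and treatment had 2 arrays, which gives 8 groups, with no dose and no time beyond these. A difference between lines rests on 1 line on each side or on the mean of 3, and the labels leave unsaid whether the 2 arrays of a group hold RNA of separate cultures. The p-values therefore reflect the spread between arrays, which can be purely technical.

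ATF4 is made when kinases that sense uncharged tRNA or misfolded protein phosphorylate the initiation factor eIF2, a step that slows most translation but favours the ATF4 message. ATF4 pairs with C/EBP proteins such as C/EBPG on short response elements and raises genes that import amino acids, make them or load them onto tRNA. Growth signals through mTORC1 raise ATF4 as well. Leukaemic lymphoblasts with little asparagine synthetase depend on asparagine from outside the cell, which is why asparaginase is used against acute lymphoblastic leukaemia.

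The element to which ATF4 and C/EBP proteins bind has the core TGATGNAA, where N is any base, and promoters of some members that carry it are shown. The members are listed as ATF4 targets or as regulators that act with ATF4, so their share with the core is not independent of that choice. A promoter here is the window from 250 bases before to 50 bases after a RefSeq start site on GRCh38.p14, searched on both strands, and 31 of the 37 genes matched the promoter table. The core was present in 13 of these 31 genes, or 41.9%, against 4.46% of 27305 genes with a window. The members had 1.55 windows per gene against 1.29 over all genes, and per window the shares were 27.1% of 48 and 3.62% of 35116. CACGTG, the E-box to which MYC and related factors bind, was present in 4 of the 31 genes, or 12.9%, against 8.77% of all genes. A match is a description of letters in a window and not a measured site. Below are the 250 bases before a start site of 5 members with a core in that stretch. They are the 5 such members with the lowest PD-0332991 minus DMSO change in Jurkat, in the order of that change. CEBPG, ASNS, GARS1 and ATF3 had 2 windows each, and only the window shown held the core. Capitals mark the core as it reads on the printed strand, so that a core on the opposite strand appears as its reverse complement. The windows are chr15:40953221-40953470 on the plus strand for CHAC1, chr19:33373863-33374112 on the plus strand for CEBPG, chr7:97872409-97872658 on the minus strand for ASNS, chr7:30594628-30594877 on the plus strand for GARS1 and chr1:212565157-212565406 on the plus strand for ATF3.
CHAC1: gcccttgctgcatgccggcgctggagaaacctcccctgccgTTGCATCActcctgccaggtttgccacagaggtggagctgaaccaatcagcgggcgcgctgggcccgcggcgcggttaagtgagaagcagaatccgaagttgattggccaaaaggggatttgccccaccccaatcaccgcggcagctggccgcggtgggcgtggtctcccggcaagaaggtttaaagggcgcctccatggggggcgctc
CEBPG: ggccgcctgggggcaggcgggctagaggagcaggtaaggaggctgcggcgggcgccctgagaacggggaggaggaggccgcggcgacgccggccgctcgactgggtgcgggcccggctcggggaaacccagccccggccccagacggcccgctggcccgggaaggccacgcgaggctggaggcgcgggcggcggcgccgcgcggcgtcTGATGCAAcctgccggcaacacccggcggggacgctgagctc
ASNS: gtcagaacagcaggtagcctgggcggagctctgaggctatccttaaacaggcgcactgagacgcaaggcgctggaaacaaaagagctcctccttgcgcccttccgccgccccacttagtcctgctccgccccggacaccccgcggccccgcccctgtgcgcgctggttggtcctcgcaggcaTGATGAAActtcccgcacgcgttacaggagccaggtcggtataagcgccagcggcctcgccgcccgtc
GARS1: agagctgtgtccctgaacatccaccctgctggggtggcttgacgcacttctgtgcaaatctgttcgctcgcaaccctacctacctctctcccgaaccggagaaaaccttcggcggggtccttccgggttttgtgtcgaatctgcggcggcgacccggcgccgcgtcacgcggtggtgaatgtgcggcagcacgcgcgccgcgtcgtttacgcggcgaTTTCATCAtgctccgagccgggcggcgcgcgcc
ATF3: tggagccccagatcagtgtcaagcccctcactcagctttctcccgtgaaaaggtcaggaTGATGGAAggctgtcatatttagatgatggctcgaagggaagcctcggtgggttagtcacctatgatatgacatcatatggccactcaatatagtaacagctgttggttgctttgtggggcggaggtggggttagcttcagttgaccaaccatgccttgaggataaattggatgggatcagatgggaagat

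Positions are counted from the start site of the window shown. These cores span -209 to -202 in CHAC1, -42 to -35 in CEBPG, -68 to -61 in ASNS, -33 to -26 in GARS1 and -191 to -184 in ATF3. The other 8 members with a core were TARS1, IARS1, CARS1, SLC3A2, MARS1, SLC7A1, AARS1 and NARS1. ATF4 itself had the E-box and no core, as did SLC7A5 and ALDH18A1, and IARS1 had both, with no overlap between the matches.

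The arrays were close within each group: the 2 replicates of a group had correlations of 0.993 to 0.998 across the 13483 genes tested. The array medians lay between 28.5 and 31.2 intensity units. All 9 T-cell markers examined lay above the dim level of 4.88 (log2 of the median of all deposited values) in each of the 4 lines. Markers of other cell types were mixed. MS4A1 of the B-cell list, CD14, LYZ and ITGAM of the myeloid list, KRT19 and CDH1 of the epithelial list, and COL1A2, COL3A1 and CDH5 of the fibroblast and endothelial list lay below it in every line. CD79A, CD79B, CSF1R, HBB, PF4, KRT8, COL1A1 and PECAM1 lay above it in every line, EPCAM in CEM alone, and DCN in all but CEM. The log2 ratio of the 5' to the 3' actin control probe sets, which falls as RNA is degraded or incompletely copied, was -0.74 and -0.84 in Jurkat with DMSO and -0.86 and -0.93 with PD-0332991. The part of this ratio in the Jurkat results below was not tested. For GAPDH the same ratio was -0.19 and -0.14 with DMSO and -0.12 and -0.14 with PD-0332991.

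With PD-0332991, most of the amino acid response genes were called lower in Jurkat. Limma called 26 of the 36 genes lower in Jurkat, against 11.4% of all genes tested, and 0 higher, against 15.6%. A gene is called here at an adjusted p under 0.05, and at an unadjusted p under 0.05 the counts were 28 lower and 0 higher. All shares of genes called are at the adjusted p. None is given at an unadjusted p, so the counts at an unadjusted p, here and below, have no background. The median PD-0332991 minus DMSO change of the 36 genes in Jurkat was -0.44 on the log2 scale, against 0.05 over all genes tested, and 31 of the 36 changes were below 0. Both treated Jurkat arrays lay below both controls in 29 of the 36 genes, against 25.2% of all genes. They lay above them in 2, PSPH and CTH, against 38.6%, and overlapped with them in 5, against 36.2%. Changes ranged from -1.26 for CHAC1 to 0.42 for CTH. In CEM 10 genes were called lower, against 11.6% of all genes, and 0 higher, against 16.5%; at an unadjusted p the counts were 19 and 0. In CUTL1 10 were called lower and 5 higher, against 12.7% and 14.6% of all genes. In DND41 5 were called lower and 4 higher, shares of the 36 that are near the 17.1% and 11.1% of all genes. The medians were -0.20 in CEM, -0.052 in CUTL1 and -0.021 in DND41. The DND41 background itself depends on scaling, with 1495 genes called higher and 2305 lower as reported. Centring each array on its median gave 899 and 2880, and quantile normalization 2156 and 1760.

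**Figure D1:**
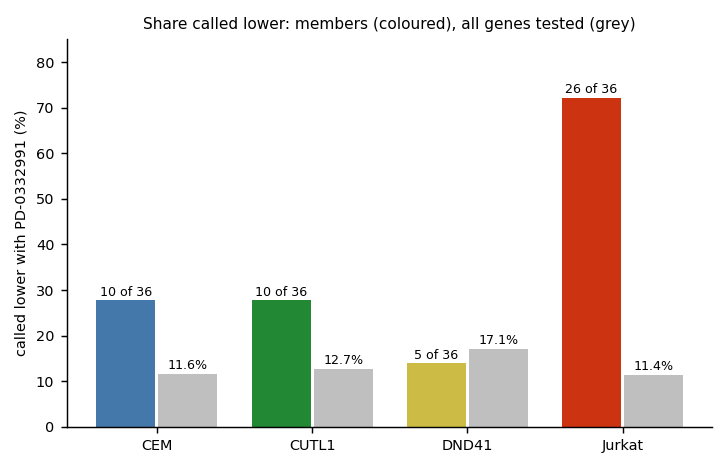
Share of genes called lower with PD-0332991 (adjusted p under 0.05, percent, y axis) in each line, for the 36 amino acid response genes and for all 13483 genes tested. The member share is highest in Jurkat, at 26 of 36 genes against a background of 11.4%, and in DND41 it is 5 of 36 against 17.1%.

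In Jurkat and in no other line 12 members were called lower, against 1.42% of all genes: ATF4, CHAC1, TRIB3, PYCR1, SLC7A5, AARS1, GARS1, CARS1, EPRS1, TARS1, YARS1 and STC2. STC2 lay below the dim level in the other lines, and without it the count was 11. MTHFD2 and CEBPG were called lower in all 4 lines, 2 of 36 against 5.65% of all genes, which is a like share. In 3 lines 4 genes were called lower, against 3.12% of all genes, in 2 lines 9, against 4.31%, and in 1 line 13, against 12.2%, while 8 were called lower in none, against 74.7%. These calls do not by themselves show that a gene differed between lines, which is tested further on. Over the average of the 4 lines 22 genes were called lower, against 20.0% of all genes, and 1, WARS1, higher, against 26.7%, with a median of -0.19 against 0.04 over all genes.

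**Figure D2:**
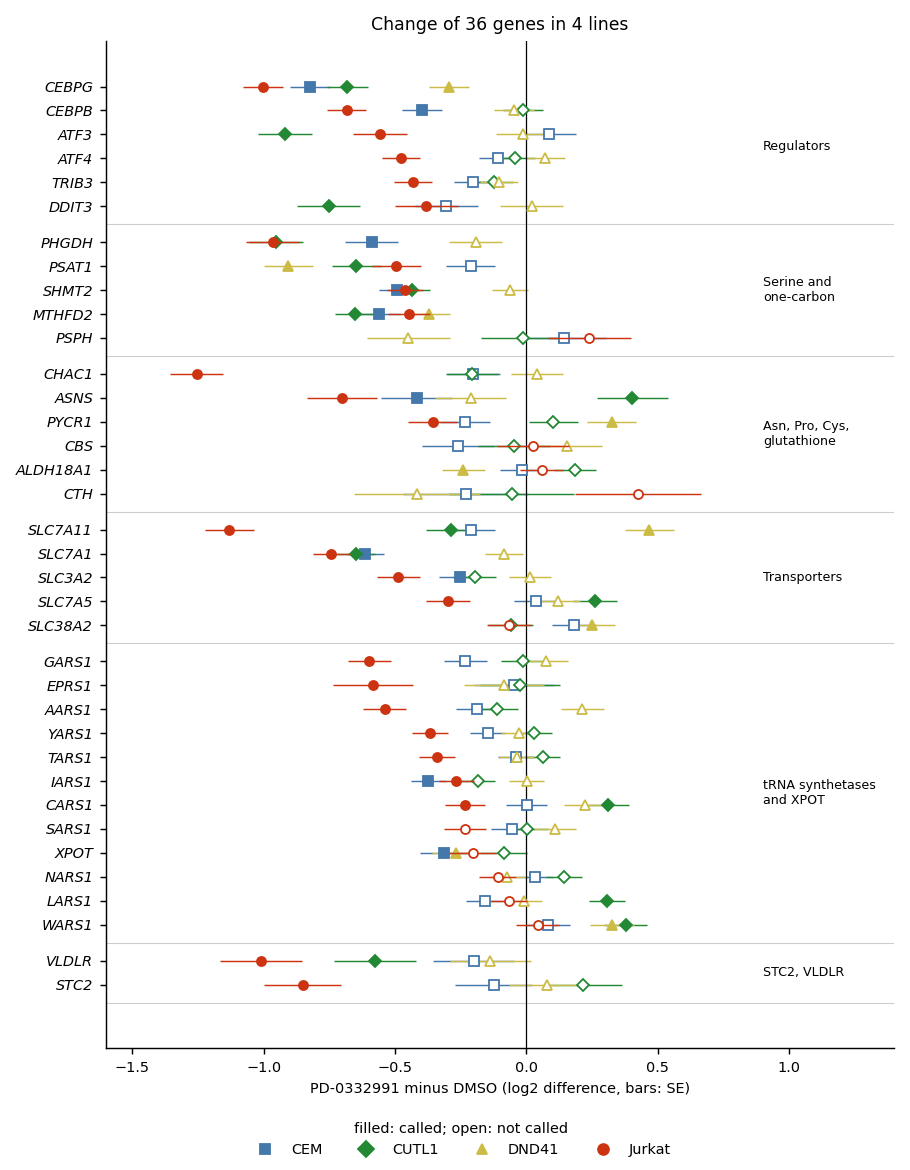
PD-0332991 minus DMSO change (log2 difference, x axis) of the 36 genes in each of the 4 lines, grouped by role, with bars showing the standard error of the fit and filled symbols the calls. Jurkat had the lowest change of the 4 lines for 24 of the 36 genes, against 18.1% of all genes tested, and DND41 the highest for 19, against 28.0%.

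The regulators fell together in Jurkat, where all 6 of ATF4, ATF3, DDIT3, CEBPB, CEBPG and TRIB3 were called lower with a median change of -0.52. ATF4, the central factor, had log2 levels of 12.99 and 12.91 with DMSO and 12.50 and 12.45 with PD-0332991 in Jurkat. Both treated arrays lay below both control arrays, and the change was -0.48 (SE 0.073, adjusted p = 0.000607), or 1.39-fold lower. In the other lines ATF4 read 12.73 and 12.76 against 12.64 and 12.63 in CEM, 12.60 and 12.40 against 12.48 and 12.43 in CUTL1 and 12.89 and 12.85 against 12.91 and 12.98 in DND41, with DMSO first. No other line's ATF4 change was called, at -0.11 in CEM, -0.042 in CUTL1 and 0.072 in DND41, and in DND41 both treated arrays lay above both controls.

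CEBPG, the C/EBP family partner of ATF4, stood at 8.95 and 8.89 with DMSO and 7.95 and 7.89 with PD-0332991 in Jurkat, a change of -1.002 (SE 0.077, adjusted p = 2.17e-06). It read 8.70 and 8.81 against 7.94 and 7.91 in CEM, 8.83 and 8.78 against 8.10 and 8.15 in CUTL1 and 8.98 and 9.06 against 8.81 and 8.63 in DND41. The treated arrays lay below the controls in all 4 lines, and the change was called in each, from -0.82 in CEM through -0.68 in CUTL1 to -0.30 in DND41. The DND41 call was lost without the second DMSO or the second PD-0332991 array of DND41, with an adjusted p of up to 0.104. Another CEBPG probe set, with a mean log2 value of 8.46 against 8.52 for the one used, read -0.49 in Jurkat and was also called. CEBPB, a second C/EBP factor, stood at 10.42 and 10.39 with DMSO and 9.68 and 9.76 with PD-0332991 in Jurkat, a change of -0.68 (SE 0.075, adjusted p = 4.98e-05). It read 10.94 and 10.93 against 10.52 and 10.56 in CEM, 10.31 and 10.53 against 10.41 and 10.40 in CUTL1 and 10.85 and 10.89 against 10.81 and 10.84 in DND41. CEBPB also fell in CEM, with a change of -0.40, while the CUTL1 arrays of the 2 treatments overlapped and the changes there and in DND41 were -0.014 and -0.047.

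ATF3, a stress-induced repressor of the same bZIP class, stood at 8.16 and 8.05 with DMSO and 7.56 and 7.54 with PD-0332991 in Jurkat, a change of -0.56 (SE 0.10, adjusted p = 0.00191). It read 7.86 and 7.77 against 7.91 and 7.89 in CEM, 5.47 and 5.35 against 4.31 and 4.67 in CUTL1 and 8.75 and 8.82 against 8.75 and 8.79 in DND41. In CUTL1 the controls were only a little above the dim level and the treated arrays below it, and the change of -0.92 (SE 0.10, adjusted p = 4.38e-05) there was also called. In CEM and DND41 ATF3 was not called, at 0.085 and -0.013, and without probe sets marked _x_at or _s_at, which can read several transcripts, the ATF3 calls were lost in Jurkat at -0.25 (adjusted p = 0.305) and in CUTL1 (adjusted p = 0.488). DDIT3, which encodes the factor CHOP, stood at 8.11 and 8.16 with DMSO and 7.66 and 7.84 with PD-0332991 in Jurkat, a change of -0.38 (SE 0.12, adjusted p = 0.0361). It read 8.02 and 8.39 against 7.81 and 7.99 in CEM, 9.01 and 8.79 against 8.14 and 8.15 in CUTL1 and 8.88 and 8.89 against 8.97 and 8.85 in DND41. DDIT3 also fell in CUTL1, with a change of -0.75 (SE 0.12, adjusted p = 0.000684), and was not called in CEM at -0.30 or in DND41 at 0.020. The Jurkat call for DDIT3 was lost without any 1 of 8 arrays, the 4 of Jurkat, both treated CUTL1 arrays and both DND41 controls, with an adjusted p of up to 0.229.

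TRIB3, a pseudokinase that binds ATF4 and limits its activity, stood at 9.76 and 9.87 with DMSO and 9.39 and 9.37 with PD-0332991 in Jurkat, a change of -0.43 (SE 0.072, adjusted p = 0.00107). It read 10.38 and 10.40 against 10.16 and 10.20 in CEM, 8.96 and 9.14 against 8.89 and 8.97 in CUTL1 and 10.40 and 10.44 against 10.31 and 10.32 in DND41. Treated arrays lay below controls in Jurkat, CEM and DND41 and overlapped in CUTL1. Only the Jurkat change was called among the 4 lines, the others being -0.20 in CEM, -0.12 in CUTL1 and -0.10 in DND41. Another TRIB3 probe set, with a mean log2 value of 6.59, read -0.28 in Jurkat and was not called (limma, adjusted p = 0.229).

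**Figure D3:**
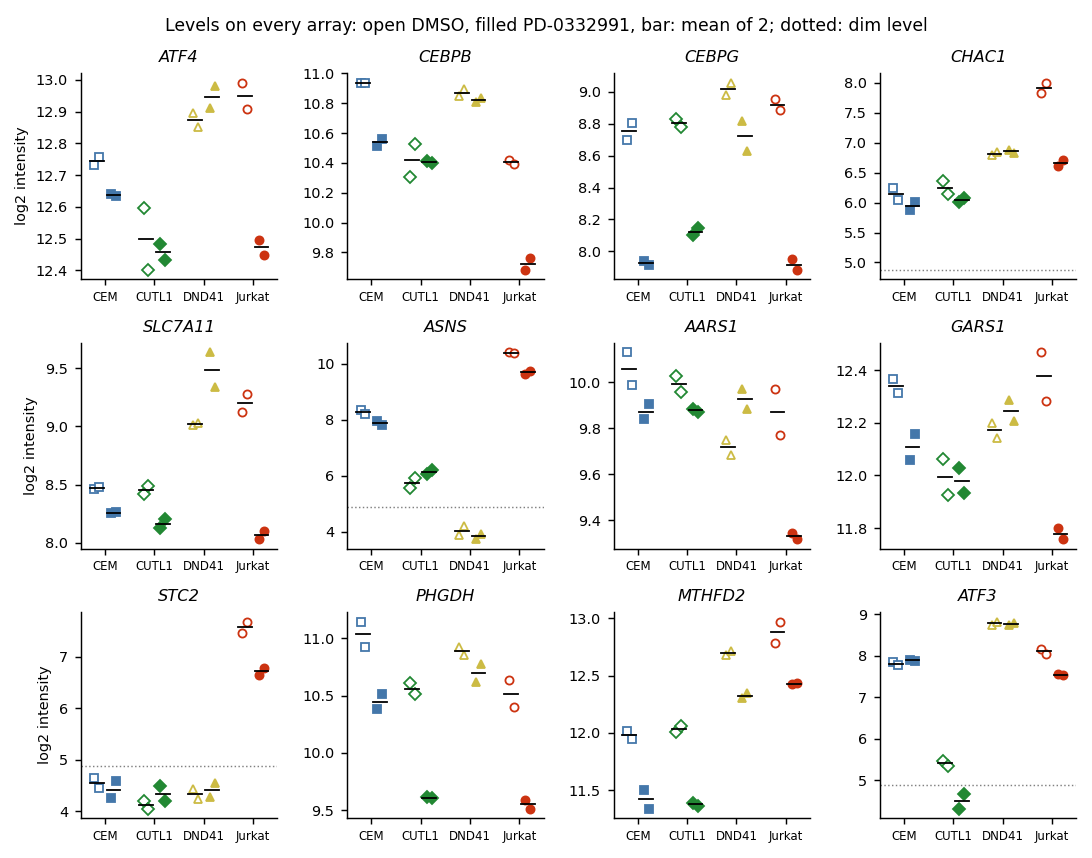
Log2 level (y axis) on each of the 16 arrays by line, with DMSO and PD-0332991 marked separately. The genes are ATF4, CEBPB, CEBPG, CHAC1, SLC7A11, ASNS, AARS1, GARS1, STC2, PHGDH, MTHFD2 and ATF3. The dim level of 4.88 is drawn as a dotted line for CHAC1, ASNS, STC2 and ATF3, which reach low values. The treated Jurkat arrays lie below the Jurkat controls in every gene drawn, some of which are shown for the size of their change, and STC2 lies above the dim level in Jurkat alone.

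The serine and one-carbon enzymes fell in several lines. In Jurkat 4 of the 5 were called lower, against 11.4% of all genes, with a median of -0.46. Over the average of the 4 lines the same count was reached, against 20.0% of all genes, with a median of -0.51. In Jurkat minus the other lines 0 of the 5 were called, against 1.50% of all genes lower and 0.972% higher, which is a like share. At an unadjusted p 1 was lower there. PHGDH, the first enzyme of serine synthesis, stood at 10.64 and 10.40 with DMSO and 9.59 and 9.51 with PD-0332991 in Jurkat, a change of -0.97 (SE 0.10, adjusted p = 3.56e-05), or 1.95-fold lower. It read 11.15 and 10.93 against 10.38 and 10.51 in CEM, 10.61 and 10.51 against 9.62 and 9.60 in CUTL1 and 10.93 and 10.85 against 10.62 and 10.78 in DND41. Treated arrays lay below controls in every line, and the change was called in CEM at -0.59 and in CUTL1 at -0.95 but not in DND41 at -0.19.

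PSAT1, which catalyses the step after PHGDH, stood at 12.65 and 12.91 with DMSO and 12.29 and 12.28 with PD-0332991 in Jurkat, a change of -0.50 (SE 0.094, adjusted p = 0.00238). It read 12.27 and 12.15 against 12.03 and 11.96 in CEM, 11.43 and 11.37 against 10.71 and 10.78 in CUTL1 and 11.52 and 11.56 against 10.53 and 10.73 in DND41. With this probe set DND41 had the largest fall of the 4 lines, with a change of -0.91 (SE 0.094, adjusted p = 4.62e-05). CUTL1 followed at -0.65, and CEM was not called at -0.21. In a limma fit of single probe sets, another PSAT1 probe set read -0.98 in Jurkat and was called (adjusted p = 0.00091). Its Jurkat change minus the mean of the other lines was -0.28, against 0.093 for the one used, and neither was called. PSPH, which catalyses the last step to serine, was not called in any line, and its Jurkat change was 0.24 with a 95% interval of -0.11 to 0.59.

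MTHFD2, the mitochondrial folate enzyme that carries serine-derived one-carbon units, stood at 12.79 and 12.97 with DMSO and 12.43 and 12.43 with PD-0332991 in Jurkat, a change of -0.45 (SE 0.079, adjusted p = 0.00147). It read 12.02 and 11.95 against 11.51 and 11.34 in CEM, 12.004 and 12.06 against 11.39 and 11.37 in CUTL1 and 12.68 and 12.71 against 12.30 and 12.35 in DND41. All 4 lines had both treated arrays below both controls. All 4 changes were called, CUTL1 lowest at -0.65 and DND41 nearest 0 at -0.37. Another MTHFD2 probe set, with a mean log2 value of 6.71, read -0.76 in Jurkat in a limma fit of single probe sets and was called. Its Jurkat change minus the mean of the other lines was -0.31, against 0.080 for the one used, and neither was called. SHMT2, which splits serine to glycine in mitochondria, was called lower in Jurkat at -0.46, in CEM at -0.49 and in CUTL1 at -0.44, and was -0.064 in DND41.

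Among the 6 enzymes of asparagine, proline, cysteine and glutathione metabolism, 3 were called lower in Jurkat, and the median change was -0.17. CHAC1, which degrades glutathione, had the lowest Jurkat change of all 36 genes. It stood at 7.83 and 8.004 with DMSO and 6.62 and 6.71 with PD-0332991 in Jurkat, a change of -1.26 (SE 0.10, adjusted p = 3.15e-06), or 2.39-fold lower. In the other lines CHAC1 read 6.24 and 6.04 against 5.87 and 6.01 in CEM, 6.36 and 6.14 against 6.01 and 6.07 in CUTL1 and 6.79 and 6.85 against 6.88 and 6.83 in DND41. With DMSO both Jurkat arrays were above every array of the other lines, and with PD-0332991 they lay below every DND41 array and above those of CEM and CUTL1. The changes in CEM, CUTL1 and DND41 were -0.20, -0.21 and 0.040 and were not called.

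ASNS, asparagine synthetase, differed widely in level between the lines. It stood at 10.41 and 10.37 with DMSO and 9.64 and 9.74 with PD-0332991 in Jurkat, a change of -0.70 (SE 0.13, adjusted p = 0.00257), or 1.63-fold lower. The other lines read 8.36 and 8.21 against 7.94 and 7.80 in CEM, 5.57 and 5.91 against 6.07 and 6.21 in CUTL1 and 3.87 and 4.21 against 3.73 and 3.92 in DND41. Every Jurkat array was above every array of the other lines, and all 4 DND41 arrays were below the dim level, so the DND41 change of -0.21 is a difference between dim values. The CEM change was -0.42 (SE 0.13, adjusted p = 0.0380) and the CUTL1 change, in the opposite direction, 0.40 (SE 0.13, adjusted p = 0.0456). Both of these calls were lost in several fits: the CEM one without any 1 of the 4 CEM or 2 treated Jurkat arrays, with an adjusted p of up to 0.198, and the CUTL1 one without any 1 of 11 of the 16 arrays, with an adjusted p of up to 0.320. These 11 were all CEM and Jurkat arrays and all CUTL1 arrays but the second control.

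PYCR1, the last enzyme of proline synthesis, was called lower in Jurkat at -0.36 and higher in DND41 at 0.32, with -0.23 in CEM and 0.10 in CUTL1. The Jurkat call was lost without the first control or either treated Jurkat array (adjusted p up to 0.119) and the DND41 call without either control or the second treated DND41 array (up to 0.133). ALDH18A1, which acts upstream of PYCR1, was not called in Jurkat at 0.058. CTH, which makes cysteine from cystathionine, was not called in any line, and its Jurkat change of 0.42 had an interval of -0.10 to 0.95. CBS, which makes cystathionine, read 0.025 in Jurkat with the probe set used here, while a second CBS probe set read -0.64 and was called lower. The mean of all CBS probe sets was called lower in Jurkat as well, at -0.34 with an adjusted p of 0.0324, so no direction is given for CBS.

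Of the 5 amino acid transporter genes, 4 were called lower in Jurkat, with a median of -0.49, and SLC38A2, a neutral amino acid carrier, was not, at -0.067. SLC7A11, the cystine and glutamate exchanger, stood at 9.12 and 9.28 with DMSO and 8.03 and 8.10 with PD-0332991 in Jurkat, a change of -1.13 (SE 0.093, adjusted p = 4.28e-06), or 2.19-fold lower. It read 8.46 and 8.48 against 8.26 and 8.26 in CEM, 8.42 and 8.49 against 8.13 and 8.21 in CUTL1 and 9.01 and 9.03 against 9.64 and 9.34 in DND41. The direction differed between lines: DND41 rose, with a change of 0.47 (SE 0.093, adjusted p = 0.00375), and the treated arrays of CEM and CUTL1 lay below their controls. CUTL1 was called at -0.29 (SE 0.093, adjusted p = 0.0401), a call lost without any 1 of 12 arrays, the 4 of CEM, the 4 of CUTL1, both DND41 controls and both treated Jurkat arrays, with an adjusted p of up to 0.191. CEM was not called at -0.21.

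SLC7A1, the cationic amino acid transporter for arginine and lysine, stood at 11.67 and 11.68 with DMSO and 10.93 and 10.94 with PD-0332991 in Jurkat, a change of -0.74 (SE 0.071, adjusted p = 1.55e-05). It read 11.36 and 11.50 against 10.82 and 10.82 in CEM, 10.97 and 11.002 against 10.36 and 10.31 in CUTL1 and 11.63 and 11.51 against 11.54 and 11.43 in DND41. The treated arrays lay below the controls in Jurkat, CEM and CUTL1, each called, with changes of -0.61 in CEM and -0.65 in CUTL1, and overlapped in DND41 at -0.086. The 2 subunits of the large neutral amino acid transporter were both lower in Jurkat, SLC3A2, the heavy chain it shares with SLC7A11, at -0.49 and SLC7A5, the transport subunit, at -0.30. SLC7A5 was called higher in CUTL1 at 0.26. Its Jurkat call was lost without any 1 of the 4 Jurkat arrays, with an adjusted p of up to 0.107, and its CUTL1 call without any 1 of 9 arrays, with an adjusted p of up to 0.290. The 9 were both CEM controls, the first control and both treated CUTL1 arrays, both DND41 controls and both treated Jurkat arrays.

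The cytosolic aminoacyl-tRNA synthetases, which load amino acids onto their tRNAs, were called lower in Jurkat in 7 of 12 genes tested, XPOT, the tRNA export receptor, included among the 12. Their median in Jurkat was -0.25. GARS1, for glycine, stood at 12.47 and 12.28 with DMSO and 11.80 and 11.76 with PD-0332991 in Jurkat, a change of -0.60 (SE 0.082, adjusted p = 0.000273). It read 12.37 and 12.31 against 12.06 and 12.16 in CEM, 12.06 and 11.92 against 12.03 and 11.93 in CUTL1 and 12.20 and 12.14 against 12.29 and 12.21 in DND41. Only Jurkat was called, and the changes elsewhere were -0.23 in CEM, -0.014 in CUTL1 and 0.074 in DND41. AARS1, for alanine, stood at 9.97 and 9.77 with DMSO and 9.34 and 9.32 with PD-0332991 in Jurkat, a change of -0.54 (SE 0.081, adjusted p = 0.000525). It read 10.13 and 9.99 against 9.84 and 9.90 in CEM, 10.03 and 9.96 against 9.89 and 9.87 in CUTL1 and 9.75 and 9.69 against 9.97 and 9.89 in DND41. The treated AARS1 arrays lay below the controls in Jurkat, CEM and CUTL1 and above them in DND41, where the change of 0.21 was not called.

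Also called lower in Jurkat were EPRS1, for glutamate and proline, at -0.58, YARS1, for tyrosine, at -0.37, and TARS1, for threonine, at -0.34. So were IARS1, for isoleucine, at -0.27, and CARS1, for cysteine, at -0.23. IARS1 was called lower in CEM too, from a mean level of 12.28 with DMSO to 11.91 with PD-0332991. CARS1 was called higher in CUTL1 at 0.31, a call lost without the first control or the second treated CUTL1 array (adjusted p up to 0.0931), and its Jurkat call was lost without any 1 of 12 arrays, all but the CUTL1 controls and the treated DND41 arrays, with an adjusted p of up to 0.163. EPRS1 was not called without any 1 of the 4 Jurkat arrays (adjusted p up to 0.0805), and IARS1 without the first Jurkat control or the first treated Jurkat array (up to 0.0991). Without probe sets marked _x_at or _s_at YARS1 was not called, at -0.55 with an adjusted p of 0.128. In a limma fit of single probe sets, the other EPRS1 probe sets were not called in Jurkat. They read -0.19 (adjusted p = 0.200) and -0.76 (adjusted p = 0.101). The 5 other genes of the group were not called in Jurkat. SARS1, for serine, was at -0.23 with an adjusted p of 0.0503 and XPOT at -0.20. NARS1, for asparagine, was at -0.11, LARS1, for leucine, at -0.066, and WARS1, for tryptophan, at 0.043. XPOT was called lower in CEM, from a mean level of 11.19 with DMSO to 10.87 with PD-0332991, and in DND41, from 11.61 to 11.35. Its other probe set, in the limma fit of single probe sets, was called lower in Jurkat at -0.23 (adjusted p = 0.0486). WARS1 and LARS1 were called higher in CUTL1, at 0.38 and 0.31, and WARS1 also in DND41 at 0.33, a call lost without either control or the second treated DND41 array (adjusted p up to 0.0671).

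STC2, a secreted glycoprotein induced by stress, stood at 7.46 and 7.68 with DMSO and 6.65 and 6.79 with PD-0332991 in Jurkat, a change of -0.85 (SE 0.15, adjusted p = 0.00127), or 1.80-fold lower. It read 4.64 and 4.45 against 4.26 and 4.58 in CEM, 4.19 and 4.05 against 4.49 and 4.20 in CUTL1 and 4.43 and 4.24 against 4.28 and 4.55 in DND41. Only in Jurkat was STC2 above the dim level, so its changes in the other lines are differences between dim values, and it entered the tests through Jurkat alone. Another STC2 probe set, with a mean log2 value of 4.46, read -0.39 in Jurkat and was not called (limma, adjusted p = 0.167). VLDLR, a receptor for lipoproteins, was called lower in Jurkat at -1.01 and in CUTL1 at -0.58, the latter lost without the second control or either treated CUTL1 array (adjusted p up to 0.113). In CUTL1 only the second control lay above the dim level, so the size of that change is uncertain. VLDLR was -0.20 in CEM and -0.14 in DND41.

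The difference between Jurkat and the other lines was tested as the Jurkat change minus the mean change of CEM, CUTL1 and DND41. Limma called 11 of the 36 genes lower in this difference, against 1.50% of all genes, and 0 higher, against 0.972%. At an unadjusted p under 0.05 the counts were 23 and 1, to which these shares do not apply. The median difference was -0.31 on the log2 scale, against 0.02 over all genes. The largest differences among the 11 were those of CHAC1 at -1.13 (SE 0.12, adjusted p = 0.000443) and SLC7A11 at -1.12 (SE 0.11, adjusted p = 0.000415), and next by size STC2 at -0.91 (SE 0.17, adjusted p = 0.0154), which sets the Jurkat change against differences between dim values. Without STC2 the count was 10. GARS1 differed by -0.54, CEBPB by -0.53, AARS1 by -0.51 and ATF4 by -0.45, with adjusted p of 0.0114, 0.00741, 0.0143 and 0.0159. SLC7A5 at -0.44, CARS1 at -0.41, CEBPG at -0.40 and TARS1 at -0.33 completed the 11. In a limma fit of single probe sets, the other CEBPG and STC2 probe sets were not called in this difference. They read -0.085 (adjusted p = 0.706) and -0.46 (adjusted p = 0.380). The other SLC7A11 probe sets were called lower in it. VLDLR at -0.70 and ASNS at -0.63 were not called, with adjusted p of 0.0716 and 0.0649, and the 1 gene higher at an unadjusted p was CTH, at 0.66 with an adjusted p of 0.281. By role the 11 were 3 regulators, 1 enzyme of the glutathione group, 2 transporters, 4 synthetases and STC2. Of the 5 serine and one-carbon enzymes 0 were called, and with 1.50% of all genes called lower this does not set them apart.

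The count of 11 genes lower in the difference depended on single arrays. It was smallest without either treated Jurkat array or the first Jurkat control. Smaller counts also came without the first CEM control, the second treated CEM array, either treated CUTL1 array or the first DND41 control. In each of these fits fewer of all genes were called lower in the difference as well. CHAC1 and SLC7A11 were called under every alternative run, with adjusted p of at most 0.0110 and 0.00657. GARS1, AARS1 and ATF4 were not called without the first Jurkat control or either treated Jurkat array (adjusted p up to 0.0822, 0.0961 and 0.114), STC2 without the second Jurkat control or either treated array (up to 0.103), and CEBPB without the first treated array (0.0645). SLC7A5 and TARS1 were not called without any 1 of 13 of the 16 arrays (adjusted p up to 0.181 and 0.249), and CARS1 and CEBPG without any 1 of 11 (up to 0.155 and 0.210).

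**Figure D4:**
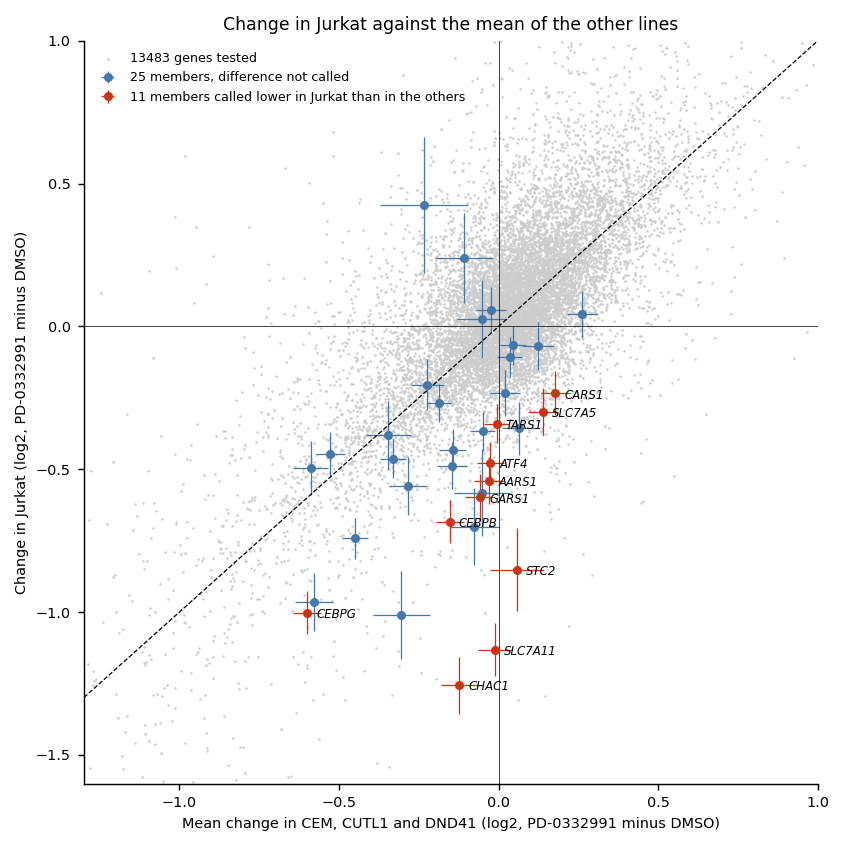
PD-0332991 minus DMSO change in Jurkat (log2 difference, y axis) against the mean change in CEM, CUTL1 and DND41 (log2 difference, x axis) for the 36 genes, named where called in the difference, over all genes tested in grey; 253 genes lie outside the axes. Most members lie below the diagonal of equal change, CHAC1 and SLC7A11 farthest.

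Line by line, 3 of the 36 genes were called lower in Jurkat than in CEM, against 1.64% of all genes, and 0 higher, against 0.334% (15 and 0 at an unadjusted p). Against CUTL1 the counts were 8 lower, against 0.927%, and 0 higher, against 1.62% (20 and 1 at an unadjusted p). Against DND41 they were 18 lower, against 3.12%, and 0 higher, against 6.40% (27 and 4 at an unadjusted p). CHAC1 and SLC7A11 were called lower in Jurkat than in each of the 3 lines, ATF3, CEBPB, SLC7A5, GARS1, CARS1 and STC2 than in 2 of them (STC2 against dim values), 11 genes than in 1, and 17 than in none. ASNS was called only against CUTL1, with a difference of -1.10 (SE 0.19, adjusted p = 0.0112), and ATF4 only against DND41, with -0.55 (SE 0.10, adjusted p = 0.0106). The 3 comparisons share the Jurkat arrays, and the shares of all genes apply to the calls and not to the counts at an unadjusted p.

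An F test of any difference between the 4 lines' changes called 18 of the 36 genes, against 12.6% of all genes. Of these, 8 were not among the 11 above: ATF3, ASNS, PHGDH, PSAT1, SHMT2, PYCR1, SLC7A1 and LARS1. With the probe sets used, PSAT1 had its lowest change in DND41, at -0.91, and ATF3 in CUTL1, at -0.92. LARS1 had its highest change in CUTL1, at 0.31.

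The control arrays were compared as well, since Jurkat had the highest DMSO level of the 4 lines for 20 of the 36 genes, against 30.1% of all genes. Limma called 23 of the 36 genes higher in Jurkat with DMSO than in the mean of the other lines, against 28.9% of all genes, and 4 lower, against 21.5%. The median difference was 0.27, against 0.04 over all genes. Among the genes above the dim level in all 4 lines, CHAC1 at 1.51, PYCR1 at 1.39 and PSAT1 at 1.07 had the largest differences. For 3 genes called higher, some lines had both controls below the dim level, so a bound against that level is given. ASNS was at least 45.6-fold higher in Jurkat than in DND41, CTH at least 5.35-fold higher than in CEM, and STC2 at least 6.44-fold higher than in each of the other 3 lines. STC2 was tested only through its level in Jurkat, so its call here follows from the filter. The 4 genes called lower in Jurkat with DMSO were DDIT3 at -0.53, CEBPB at -0.34, PHGDH at -0.31 and SLC38A2 at -0.31. The 9 genes not called were AARS1, ALDH18A1, CBS, CEBPG, NARS1, PSPH, SLC3A2, TRIB3 and XPOT, with differences from -0.14 to 0.17. A high control level and the PD-0332991 change share the Jurkat control arrays, so no relation between them is given.

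Among the tested members, 12 had the TGATGNAA core in a promoter window, and 11 of these were called lower in Jurkat, all but NARS1, with a median change of -0.55. Of 18 with a window and no core, 11 were called lower, with a median of -0.41. Over the other genes tested, 33 of 293 genes with it were called lower in Jurkat, or 11.3%, and 11.6% of 10503 genes without it.

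Related genes outside the 37 were counted in the same way. Of 106 genes on 7 further lists 89 were tested, and 14 were called higher and 19 lower in Jurkat, against the same backgrounds of 15.6% and 11.4%. In Jurkat minus the other lines 2 of the 89 were called higher and 1 lower, against 0.972% and 1.50% of all genes. Among other targets linked to ATF4, 2 were higher and 6 lower of 17 tested. DDIT4, an mTORC1 inhibitor, rose by 1.44 in Jurkat and by 1.28 over the average of the 4 lines. Its difference between Jurkat and the other lines, 0.21, was not called. In Jurkat EIF4EBP1, the translation repressor, was at -0.81 and SLC1A5, a glutamine carrier, at -0.75, both called. SLC1A4, a carrier of alanine, serine and cysteine, was the 1 gene lower in the difference, at -0.54 with an adjusted p of 0.00945. EIF4EBP1 at -0.35 and CLGN, an endoplasmic reticulum chaperone, at 0.86 had adjusted p of 0.0521 and 0.0542 there.

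Of 8 other serine, glycine, folate and methionine enzymes, 1 was higher and 3 lower in Jurkat, against 15.6% and 11.4% of all genes. GLDC, which cleaves glycine, rose by 1.15, and its difference from the other lines of 0.87 was called with an adjusted p of 0.00467. MTHFD1 was called lower at -0.59 and SFXN1, a mitochondrial serine transporter, at -0.45. MTHFD1 differed from the other lines by 0.30 and MTHFD2L by 0.30, and neither was called. Of 10 other amino acid enzymes 2 were higher and 0 lower: ASL, argininosuccinate lyase, rose by 0.51 with a called difference of 0.54 (adjusted p = 0.0408), and GLUL, glutamine synthetase, by 0.24. ASS1, which precedes ASL in arginine synthesis, was not called at -0.50, and the differences of ASS1 and BCAT2, at -0.28 and -0.12, were not called.

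Of 7 other cytosolic synthetases and scaffold proteins, VARS1 rose by 0.26, FARSB was called lower at -0.32, and RARS1 was not called at 0.21, while the differences from the other lines of VARS1, RARS1 and KARS1, at 0.22, 0.15 and 0.14, were not called. Of 15 mitochondrial synthetases, HARS2 rose by 0.32 and PARS2 by 0.26 and NARS2 was called lower at -0.27. The differences of NARS2, VARS2 and FARS2, at -0.27, -0.22 and 0.11, were not called.

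Of 15 genes for eIF2, its kinases, its exchange factor and its phosphatase, 2 were higher and 3 lower, against 15.6% and 11.4% of all genes. EIF2AK4, the kinase GCN2 that senses uncharged tRNA, rose by 0.47, and the eIF2 subunit genes EIF2S2 and EIF2S1 were called lower at -0.42 and -0.35. Over the average of the 4 lines EIF2AK4 was at 0.30, EIF2S2 at -0.17 and EIF2S1 at -0.33, all called. The differences of EIF2S2, EIF2AK3 and EIF2S3, at -0.33, 0.23 and 0.21, were not called. Of 17 genes of the ATF6 and XBP1 arm of the unfolded protein response, 4 were higher and 5 lower, against the same shares. ERN1, the sensor kinase that splices XBP1 mRNA, rose by 0.72 and XBP1 by 0.57, and CRELD2 was called lower at -0.27. Over the average of the 4 lines ERN1 was at 0.68, XBP1 at 0.32 and CRELD2 at -0.13, all called. HERPUD1, HSP90B1 and EDEM1 differed from the other lines by -0.40, -0.50 and -0.23, none of them called.

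More than 1 probe set was present for 23 of the 36 genes and tested for 21. For 17 of these 21 all tested probe sets had the same sign in Jurkat, and CBS was the 1 gene with a probe set called with the opposite sign to the one used. A shared sign in Jurkat is not a shared call or size, as the values given above for CEBPG, TRIB3, PSAT1, MTHFD2, EPRS1 and STC2 show.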

How the data were processed

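RNA of 4 T-cell leukaemia lines was measured on 16 arrays. The authors deposited 1 intensity value for each probe set and array, computed with RMA per the submitters' processing notes. Its version and the probe sets' definition were not given in the sources used here. All values are linear, from 4.42 to 26097, where the design had assumed log2 values, so log2 was taken first, with no pseudocount and no scaling. Genes were named from the platform annotation: of 54675 probe sets 41097 had 1 gene symbol, 1801 several and 11777 none listed, and 41043 matched the RefSeq gene table, with 0 symbols changed. Testing required that a gene reach, as the mean of 1 line's 4 arrays, the median of all values (29.5, or 4.88 on the log2 scale). The filter kept 13483 genes and set 6292 aside as dim.

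Limma 3.58.1 in R 4.3.3 fitted a mean for each of the 8 groups (lmFit, then eBayes; residual degrees of freedom 8, prior 3.32), with two-sided tests and Benjamini-Hochberg adjustment over all genes tested. The threshold for a call was an adjusted p of 0.05. The fits were checked on simulated data. The alternatives covered the probe set choice, scaling, a constant of 16 added before log2, the filter, a replicate block, the variance model, the arrays in the fit and each array left out. Promoters were searched and figures drawn with pandas 2.3.3, matplotlib 3.10.9 and Python 3.11.15.

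The members, the lists and the rule for named genes were chosen with earlier results of these data known. That rule named every member with its Jurkat change. It gave all arrays for 9 fixed genes and for members called in the average effect, or in Jurkat minus the others, with a change of at least 0.5 there. From each other list it took the 3 genes with the smallest p in Jurkat and in the difference. The number of arrays limits the precision.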

Additional observations from a re-analysis of the deposited data

Results flagged for a closer look

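The PD-0332991 change differed between the lines, by limma's test of the difference itself, for 19 of the 36 genes, by either of 2 tests that together called 12.6% of all genes. In 11 of them the Jurkat change was lower than the mean of the other 3 lines: CHAC1 by -1.13, SLC7A11 by -1.12, STC2 by -0.91, GARS1 by -0.54, CEBPB by -0.53, AARS1 by -0.51, ATF4 by -0.45, SLC7A5 by -0.44, CARS1 by -0.41, CEBPG by -0.40 and TARS1 by -0.33, as signed log2 differences. STC2 lay below the dim level in the other 3 lines, so its difference is one against dim values. For CEBPG another probe set differed by -0.085 and was not called.

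In 8 further genes the F test over the 4 lines alone found a difference, and it does not say which line stands apart. The adjusted p was 0.00319 for ATF3, 0.00568 for SLC7A1, 0.0127 for PHGDH, 0.0154 for ASNS, 0.0193 for PYCR1, 0.0274 for PSAT1, 0.0338 for SHMT2 and 0.0345 for LARS1. TARS1 was called in the difference between Jurkat and the other lines and not by the F test, which called 18 genes.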

How the results depend on the processing

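No alternative called a member higher in Jurkat or in Jurkat minus the other lines. Of the 26 genes called lower in Jurkat, 17 were called in every alternative, and of the 11 in the difference 2 were, CHAC1 and SLC7A11. Without probe sets marked _x_at or _s_at only 25 of the 36 genes could be tested, and the genes called lower were 14 in Jurkat, 6 in CEM, 6 in CUTL1, 3 in DND41, 13 in the average and 7 in the difference, with 12 higher in Jurkat with DMSO and 9 by the F test. DND41 had 2 genes called lower after quantile normalization, after cyclic loess and with its own 4 arrays alone, and 3 with no filter on dim genes. Quantile normalization gave 2 higher in the average, and no filter gave 7 lower in the difference. With the mean of a gene's probe sets CBS turned to -0.34 in Jurkat (adjusted p = 0.0324), from 0.03, and CARS1 to -0.12 in the average (adjusted p = 0.0319), from 0.07. The cause of these moves was not tested, apart from the fewer genes under the first setting.

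Leaving out 1 array at a time left 20 to 27 genes lower in Jurkat, 2 to 6 lower in DND41, 1 to 2 higher in the average, 2 to 12 lower in the difference and 9 to 22 by the F test. The lowest F count came without the second treated Jurkat array, and 11 came without the first treated Jurkat array or either DND41 control. The average had 2 higher without the second CUTL1 control. In DND41 the count moved by over 1.5 times without any of 11 arrays, all but both treated CEM arrays, both Jurkat controls and the second treated DND41 array. A group left with 1 array is assumed to vary like the others. The number of all genes called lower in Jurkat and in the difference also changed with the array left out. These counts of members therefore have no fixed background.

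The labels number the replicates of each group 1 and 2. The deviations of same-numbered arrays had correlations of 0.076 in CEM, 0.195 in CUTL1, -0.108 in DND41 and 0.105 in Jurkat, so the numbers were not taken as pairs. With a replicate block 3 genes were called lower in DND41 and 6 in the difference. With the DND41 numbers crossed, an alternative chosen after seeing the data, the counts were also 3 and 6.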
